A study of Rattus norvegicus with 6 samples.

Results

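Prostaglandin synthesis and receptor genes were examined in rat nucleus pulposus cells (NPCs), the cells of the gelatinous core of the intervertebral disc. The list of 10 genes was set by symbol, with no threshold on measured values, though earlier results of these data were known when it was drawn up. It holds the cyclooxygenases Ptgs1 and Ptgs2, the prostaglandin E synthases Ptges, Ptges2 and Ptges3, the synthases of prostacyclin (Ptgis) and prostaglandin D (Ptgds), the degrading enzyme Hpgd and the receptors Ptger2 and Ptger4. Of these, 9 have a row among the 20264 rows of the combined count table, 8 have at least 1 count, and 7 had enough counts to be tested beside 11426 genes in all. Ptges, the inducible prostaglandin E synthase, was not analysed here.

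All cells came from wild-type male Sprague-Dawley rats and were primary cultures from tail discs, treated with tert-butyl hydroperoxide (TBHP), an oxidant used to bring on senescence. There were 3 libraries of the TBHP group and 3 of TBHP+FGF21, in which recombinant rat FGF21 was given together with TBHP. The labels give no animal age and no dose or duration for these libraries. For TBHP+FGF21, the treatment label names FGF21 in replicate 1, FGF22 in replicate 2 and FGF23 in replicate 3, and the libraries were kept as 1 group because the design text describes a single FGF21 group and their titles share a letter. No untreated cells were sequenced in this comparison, so every value below is a level under TBHP.

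Prostaglandins are lipid signals made on demand from arachidonic acid, which phospholipases free from cell membranes. A cyclooxygenase turns it into prostaglandin H2, and a terminal synthase then makes prostaglandin E2, D2, prostacyclin or thromboxane from it. PTGS1 is the enzyme usually present at a steady level, whereas PTGS2 is induced by cytokines, growth factors and stress. In the disc, prostaglandin E2 is known as an inflammatory and pain-related mediator, and PTGS2 is counted among the genes linked to senescent cells.

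The libraries held between 18277732 and 22426190 counts, so that 3 counts, the limit that a count of 0 allows, correspond to 0.134 to 0.164 CPM, that is counts divided by the library total and put on a common scale. This limit covers counting error only. Levels are CPM after TMM scaling, which corrects for differences in library composition. Replicate 2 of TBHP+FGF21 stood apart from its own group. Over the genes tested, its root-mean-square difference in log2 CPM was 0.228 from the TBHP libraries and 0.333 from the other libraries of its group, while for replicates 1 and 3 the difference was larger from the TBHP libraries (0.320 and 0.368) than from their own group (0.280 and 0.304). Results are given with and without it. It was singled out by its measured values, and leaving out the treated library most like the controls enlarges differences by construction, so the adjusted p-values without it are a description and not a separate test. By the edgeR quasi-likelihood test with all libraries, 1 gene had an adjusted p under 0.05 (Sirt1, which is not a prostaglandin gene), or 0.00875%, against 1019 genes at an unadjusted p under 0.05. Sirt1 was the 1 row of whole counts in the combined table that matched no row of the per-sample files. It held 32, 38 and 35 counts in TBHP and 121, 111 and 113 in TBHP+FGF21, while the single per-sample row with the same TBHP+FGF21 counts held 92, 138 and 125 in TBHP. With the per-sample counts, no gene had an adjusted p under 0.05 by edgeR and 1082 had an unadjusted p under 0.05. The counts of the 7 prostaglandin genes tested were identical in both. Of the disc markers listed, Acan, the large cartilage proteoglycan, was abundant at 2506 to 4355 CPM over the libraries, whereas Col2a1, the main cartilage collagen, was at 0.408 to 0.782 CPM and the notochord markers Tbxt, Shh and Noto had 0 counts in every library. Col1a1, a collagen of fibrous tissue, was at 27870 to 42460 CPM, but Col1a2, another collagen of that list, was at 0.391 to 0.771 CPM. Whether the rows of Col2a1 and Col1a2 hold all the reads of these genes was not tested. Macrophage markers Ptprc, Adgre1, Cd163 and C1qa, and endothelial markers Cdh5, Kdr, Emcn and Tie1, also had 0 counts throughout.

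The comparison asked how prostaglandin gene levels differed when FGF21 was added to TBHP. With all 6 libraries, none of the 7 genes tested had an adjusted p under 0.05 by the edgeR quasi-likelihood test, and 3 had an unadjusted p under 0.05, against 8.92% of all genes tested (4.63% higher and 4.29% lower). The cyclooxygenases pointed in opposite directions. Ptgs1 was higher and Ptgs2 was lower in the TBHP+FGF21 mean, and the prostaglandin E2 receptor gene Ptger2 was higher. When replicate 2 of TBHP+FGF21 was left out, the adjusted p of these 3 genes was under 0.05, against 7.50% of the 11559 genes then tested (3.78% higher and 3.72% lower). At an unadjusted p under 0.05, 4 prostaglandin genes then passed, against 23.6% of all genes. Across the 7 genes the median log2 fold change was -0.066, beside -0.0052 over all genes. The median size of the log2 fold change was 0.32 beside 0.13. With 7 genes this median is the value of 1 gene, Hpgd, which had 9 to 40 counts and a 95% interval of -0.64 to 1.28.

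**Figure D1:**
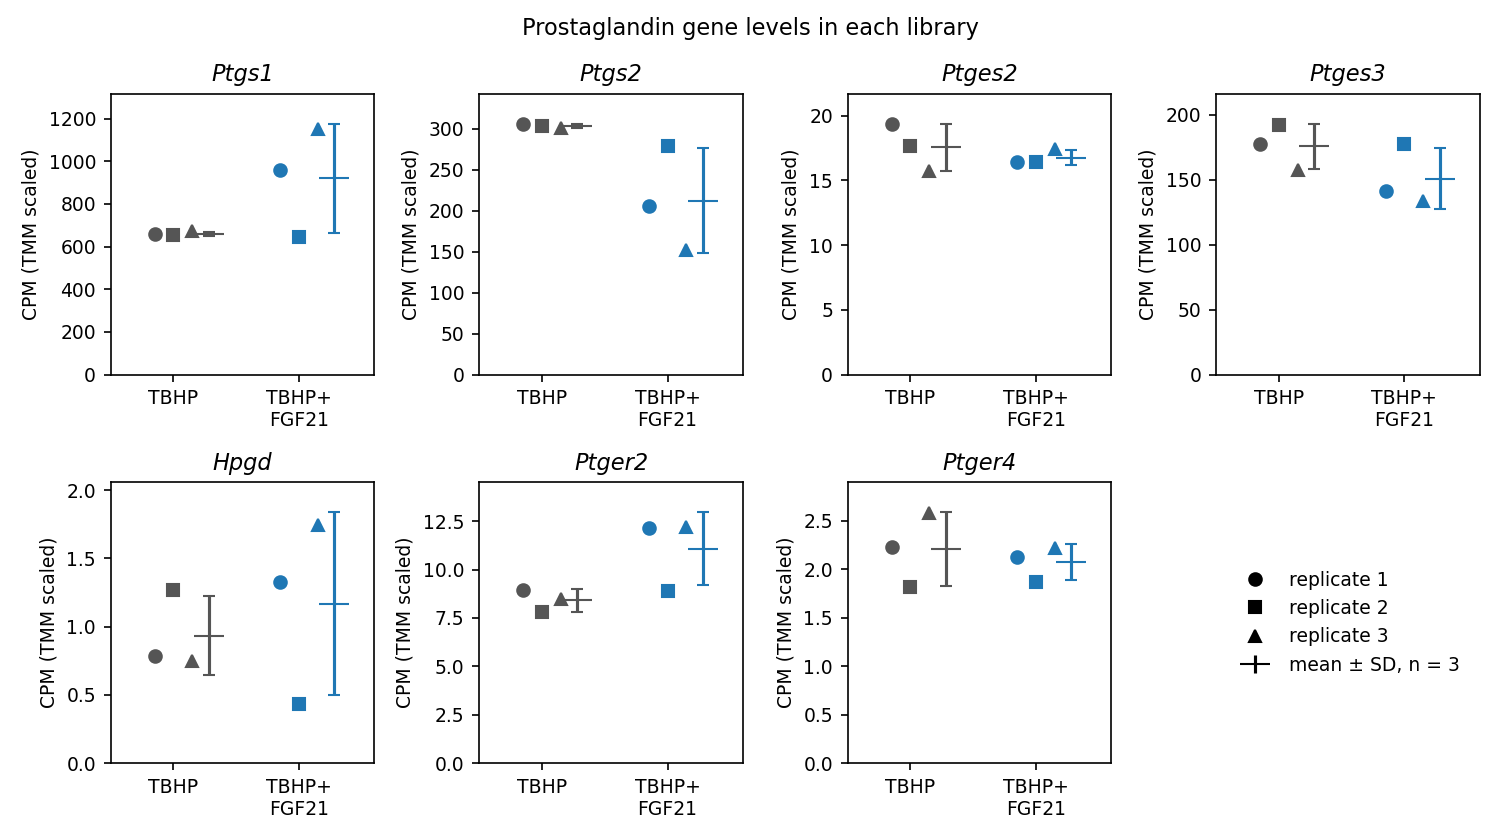
CPM (TMM scaled, linear axes from 0) of the 7 prostaglandin genes tested, in each TBHP (grey) and TBHP+FGF21 (blue) library. Symbols mark the replicates and bars the mean ± SD (n = 3). In Ptgs1 and Ptger2, replicates 1 and 3 of TBHP+FGF21 sit above every TBHP library, in Ptgs2 they sit below, and replicate 2 lies nearest to the TBHP values.

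Ptgs2 encodes the inducible cyclooxygenase and lies on rat chromosome 13 (chr13:64714063-64722320, RefSeq, build GRCr8). In TBHP it was at 306, 303 and 300.3 CPM in replicates 1, 2 and 3. In TBHP+FGF21 it was at 206, 279 and 152 CPM. The TBHP libraries were nearly equal, all the TBHP+FGF21 libraries were below them, and replicate 3 was the lowest. The log2 fold change was -0.51 (95% interval -0.88 to -0.15, standard error 0.17, adjusted p = 0.553 by the edgeR quasi-likelihood test), which is 0.700 times the TBHP level. The groups did not overlap, which was the case for 9.90% of all genes tested. An exact permutation test over libraries (two-sided, on log2 CPM) gave p = 0.1, the smallest that 3 libraries against 3 allow. Groups that do not overlap always give this value, so the test adds nothing to the lack of overlap. Without replicate 2 of TBHP+FGF21, Ptgs2 was at 0.593 times the TBHP level (log2 fold change -0.75, standard error 0.12, adjusted p = 0.00108 by edgeR). Without replicate 3 of that group, the log2 fold change was -0.32 (adjusted p = 0.973 by edgeR).

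Ptgs1 encodes the constitutive cyclooxygenase and lies on chromosome 3 (chr3:39981419-40002993, GRCr8). It was at 658, 654 and 672 CPM in TBHP. In TBHP+FGF21 it was at 960.4, 644 and 1153 CPM. Replicates 1 and 3 were above every TBHP library, but replicate 2 was below all of them, so the groups overlapped. The log2 fold change was 0.48 (95% interval 0.11 to 0.84, standard error 0.17, adjusted p = 0.553 by the edgeR quasi-likelihood test), or 1.39 times the TBHP level. Without replicate 2 of TBHP+FGF21, Ptgs1 was at 1.61 times the TBHP level (log2 fold change 0.69, standard error 0.11, adjusted p = 0.00102 by edgeR). Without replicate 3 of TBHP+FGF21, the log2 fold change of Ptgs1 was 0.29 (adjusted p = 0.973 by edgeR).

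Because both genes were counted in the same libraries, the balance of the cyclooxygenases can be read without any scaling between libraries. There were 2.15, 2.16 and 2.24 Ptgs1 counts per Ptgs2 count in the TBHP libraries. The ratio was 4.67, 2.31 and 7.58 in replicates 1, 2 and 3 of TBHP+FGF21. All the TBHP+FGF21 values were above the TBHP values, although replicate 2 only narrowly. The ratio describes counts and not enzyme amounts, and transcript lengths were not used here.

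The 250 bases before the annotated start of each cyclooxygenase gene (RefSeq, GRCr8) are shown because the group means of these genes differed in direction. Whether the letters bear on the direction was not tested. Capitals mark matches, on either strand, to any of 9 motifs. These were the TATA box as TATAAA and its variant TTTAAAA, the E-box as CACGTG, the C/EBP motif as TTNNGCAA and the core of the cAMP response element as TGACG. The others were the GC box as GGGCGG, an NF-kB pattern of GGG and CC with any 5 bases between them, an AP-1 pattern of TGA and TCA with any base between them, and the Egr1 motif as GCGTGGGCG. A match is a description of letters and not a bound site.
Ptgs2, chr13:64713813-64714062, plus strand: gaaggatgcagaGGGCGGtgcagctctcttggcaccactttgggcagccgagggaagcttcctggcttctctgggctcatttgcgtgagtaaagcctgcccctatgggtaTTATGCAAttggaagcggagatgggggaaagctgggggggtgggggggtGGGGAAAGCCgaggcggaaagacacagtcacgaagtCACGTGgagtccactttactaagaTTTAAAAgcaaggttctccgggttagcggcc
Ptgs1, chr3:39981169-39981418, plus strand: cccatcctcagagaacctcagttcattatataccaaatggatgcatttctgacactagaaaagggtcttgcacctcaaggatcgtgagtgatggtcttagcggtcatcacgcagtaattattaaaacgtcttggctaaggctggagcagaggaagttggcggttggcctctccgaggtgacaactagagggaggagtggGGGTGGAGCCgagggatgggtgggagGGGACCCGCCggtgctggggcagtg

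The Ptgs2 window held the TATA box variant TTTAAAA 31 to 25 bases before the start and the E-box CACGTG 55 to 50 bases before it. It also held the C/EBP letters TTATGCAA 140 to 133 bases before the start and a GC box 238 to 233 bases before it. Of 33469 RefSeq windows of the same length, 8.24% held the TATA box variant, 5.59% the E-box, 9.22% the C/EBP letters and 30.5% the GC box. The Ptgs1 window held none of these 4 and matched only the NF-kB letters, at 51 to 42 and at 25 to 16 bases before the start. The NF-kB letters were also in the Ptgs2 window, 91 to 82 bases before the start, and in 42.3% of all windows. The TATA box itself and the cAMP response, AP-1 and Egr1 motifs were in neither window, and 12.9%, 18.2%, 6.34% and 0.478% of all windows held them.

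Ptges2 and Ptges3 encode the membrane-associated and the cytosolic prostaglandin E synthase, and the Ptges3 protein is also known as p23, a co-chaperone of HSP90. Ptges3 was at 178, 192 and 157 CPM in TBHP, and at 141, 177.5 and 133.5 CPM in TBHP+FGF21. Replicates 1 and 3 of TBHP+FGF21 were below every TBHP library, and replicate 2 was inside their range. The log2 fold change was -0.22 (95% interval -0.49 to 0.042, adjusted p = 0.566 by the edgeR quasi-likelihood test), and it became -0.35 with replicate 2 of TBHP+FGF21 left out (adjusted p = 0.0567 by edgeR) and -0.13 with replicate 3 left out (adjusted p = 0.973).

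Ptges2 was at 19.3, 17.6 and 15.7 CPM in TBHP, and at 16.4, 16.4 and 17.4 CPM in TBHP+FGF21. All 3 TBHP+FGF21 values lay inside the TBHP range. Its log2 fold change was -0.066 (95% interval -0.33 to 0.19), and without TBHP replicate 1 the sign turned, to 0.013.

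The synthases of prostaglandin D, prostacyclin and thromboxane were hardly counted. Ptgds had 0 counts in every library. Ptgis had 1 count, in replicate 3 of the TBHP group, and 0 in the others. Both were at or under the limit of 3 counts in each library, so no fold change is given for them. Among the listed genes of the same step that are no members, Hpgds, the other prostaglandin D synthase, had 0 counts and Tbxas1, thromboxane synthase, had 1 count over all libraries.

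Hpgd encodes the enzyme that begins the inactivation of prostaglandin E2. Its counts were 14, 28 and 16 in TBHP against 28, 9 and 40 in TBHP+FGF21, or 0.782, 1.27 and 0.750 against 1.33, 0.431 and 1.74 CPM. Replicate 2 of TBHP+FGF21 was the lowest of the 6 and replicate 3 the highest. The log2 fold change was 0.32, with a 95% interval of -0.64 to 1.28, which includes 0 (adjusted p = 0.805 by the edgeR quasi-likelihood test). Without replicate 3 of TBHP+FGF21 it was -0.090, and without replicate 2 it was 0.71 (adjusted p 0.984 and 0.220 by edgeR).

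The receptors Ptger2 and Ptger4 encode EP2 and EP4, which respond to prostaglandin E2 by raising cyclic AMP. Ptger2 was at 8.94, 7.80 and 8.49 CPM in TBHP, and at 12.1, 8.90 and 12.2 CPM in TBHP+FGF21. Replicates 1 and 3 of TBHP+FGF21 were again above every TBHP library, and replicate 2 was just inside their range. The log2 fold change was 0.40 (95% interval 0.061 to 0.74, standard error 0.16, adjusted p = 0.553 by the edgeR quasi-likelihood test), or 1.32 times the TBHP level. Without replicate 2 of TBHP+FGF21, Ptger2 was at 1.46 times the TBHP level (log2 fold change 0.54, standard error 0.15, adjusted p = 0.0333 by edgeR), and without replicate 3 the log2 fold change was 0.33.

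Ptger4 was at 2.23, 1.81 and 2.58 CPM in TBHP, and at 2.13, 1.87 and 2.22 CPM in TBHP+FGF21. Every TBHP+FGF21 value was inside the TBHP range. The log2 fold change was -0.087 (95% interval -0.59 to 0.41, adjusted p = 0.899 by the edgeR quasi-likelihood test), and it became -0.0087 with replicate 2 of TBHP+FGF21 left out. Without TBHP replicate 3 it was 0.051.

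**Figure D2:**
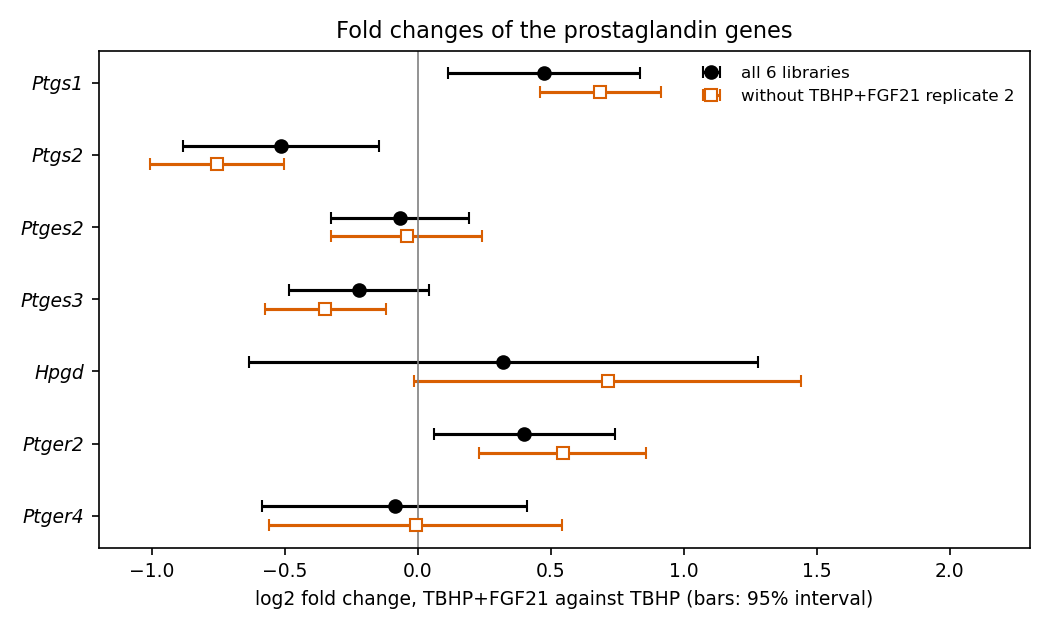
Log2 fold change of each prostaglandin gene tested, TBHP+FGF21 against TBHP, with its 95% interval, from all 6 libraries (black circles) and without replicate 2 of TBHP+FGF21 (orange squares). With all libraries the intervals of Ptgs1, Ptgs2 and Ptger2 do not cross 0, and without replicate 2 these 3 values move from 0.48 to 0.69, from -0.51 to -0.75 and from 0.40 to 0.54.

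Leaving out each library in turn did not turn the direction of Ptgs1, Ptgs2, Ptger2 or Ptges3. Of the 6 fits, the one without replicate 2 of TBHP+FGF21 was the only one in which a prostaglandin gene had an adjusted p under 0.05. In the other 5 fits, the lowest adjusted p by edgeR was 0.284 for Ptgs1, 0.272 for Ptgs2 and 0.314 for Ptger2, all without TBHP replicate 3. At an unadjusted p under 0.05, Ptgs2 remained in all 6 fits, Ptgs1 was lost without replicate 3 of TBHP+FGF21, and Ptger2 was lost without TBHP replicate 2 and without replicate 1 or 3 of TBHP+FGF21. Ptgs2 was then the only prostaglandin gene left without replicate 3 of TBHP+FGF21, where 341 of all 11521 genes tested passed. Over the 6 fits, between 337 and 2732 of all genes tested passed this level. The fits share libraries, so they are not separate tests.

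**Figure D3:**
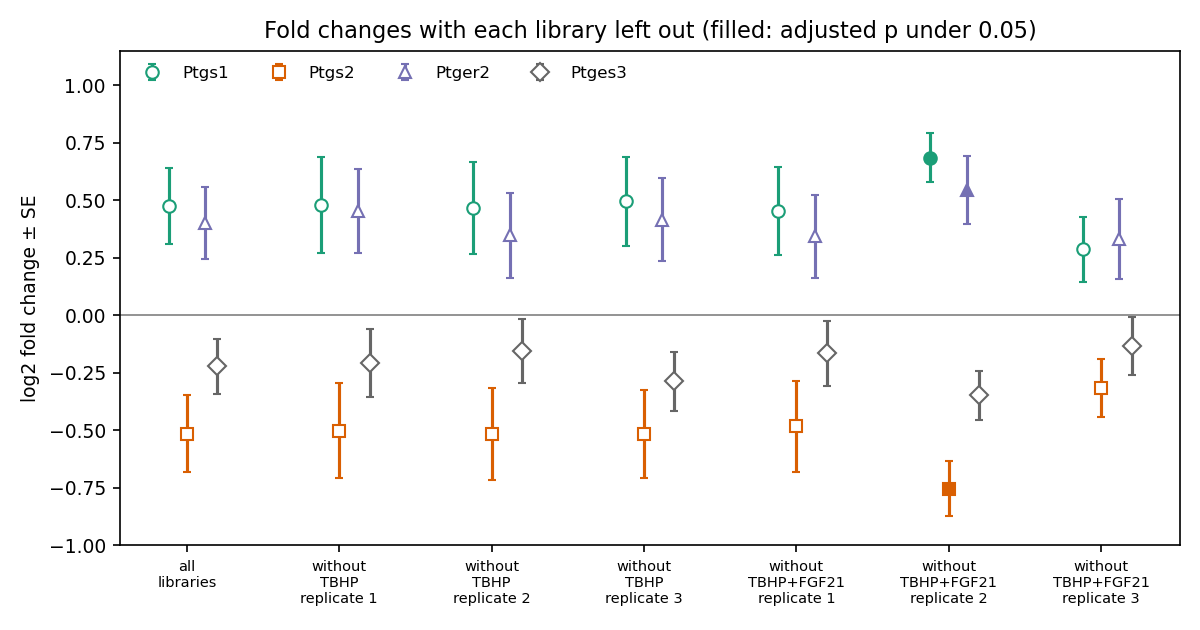
Log2 fold change ± standard error of 4 prostaglandin genes with all libraries and with each library left out; filled symbols mark an adjusted p under 0.05. The filled symbols, for Ptgs1, Ptgs2 and Ptger2, stand at 1 position, without replicate 2 of TBHP+FGF21.

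Nucleus pulposus markers differed among themselves in direction. The summed level of the nucleus pulposus and notochord list (14 of 15 markers in the table, 3 of them at 0) was 2811 to 3264 CPM in TBHP and 3183 to 4857 CPM in TBHP+FGF21, where replicate 2 had 3183. Most of this sum was Acan, at 2506 to 2939 CPM and 2864 to 4355 CPM. Of its 9 markers tested, 4 were higher and 5 lower in TBHP+FGF21. The 3 with an unadjusted p under 0.05, against 8.92% of all genes tested, were Pax1, Sox9 and Acan, with log2 fold changes of 0.54, 0.56 and 0.40 (adjusted p = 0.553 for each by the edgeR quasi-likelihood test). The lower ones were Cd24, Krt8, Car3, Col2a1 and Cdh2, with log2 fold changes of -0.55, -0.43, -0.34, -0.26 and -0.012. The annulus and fibroblast list (10 markers, Tnmd at 0) summed to 42860 to 47390 CPM in TBHP and 32530 to 44810 CPM in TBHP+FGF21, with replicate 2 at 44810. Of its 9 markers tested, 2 had an unadjusted p under 0.05, Pdgfra at 0.39 and Scx at -0.39. The part of cell makeup in the values of Ptgs1, Ptgs2 and Ptger2 was not tested, and fewer cells of a type cannot be told apart from less RNA per cell in bulk libraries. The macrophage list (10 markers, 4 at 0) summed to 32.2 to 38.2 CPM and 26.8 to 33.0 CPM, nearly all of it Cd14. The endothelial list (6 of 7 in the table, 4 at 0) summed to at most 1.10 CPM in any library, and the red blood cell list (3 of 4 in the table, Hba-a1 and Hbb at 0) to at most 0.0469 CPM.

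Other genes of the pathway were taken from a list by role. Of 63 genes, 59 had a row, 7 of these had 0 counts throughout and 42 were tested. In TBHP+FGF21, 25 of them were higher and 17 lower, and the median of their log2 fold changes was 0.087. None had an adjusted p under 0.05 by the edgeR quasi-likelihood test, and 5 had an unadjusted p under 0.05, all of them higher, against 4.63% of all genes tested that were higher at this level. Without replicate 2 of TBHP+FGF21, 6 genes had an adjusted p under 0.05 and all 6 were higher, against 3.78% of the genes tested that were called higher.

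At the first step, the release of arachidonic acid, 9 of 12 genes were tested, 4 higher and 5 lower, and none had an unadjusted p under 0.05. The highest mean CPM was that of Plcg1, a phospholipase C, at 162 ± 4.64 and 180 ± 11.7 CPM (SD, n = 3). Its groups did not overlap, with TBHP+FGF21 above, as in 4.90% of all genes tested. Its log2 fold change was 0.14 (adjusted p = 0.592 by edgeR). Pla2g4a, the cytosolic phospholipase A2 that feeds the cyclooxygenases, was at 33.3 ± 4.62 and 29.2 ± 2.38 CPM (SD, n = 3). Of the other synthases, 2 of 6 were tested, and Akr1b1, an aldose reductase that can make prostaglandin F, had the highest mean CPM, at 285 ± 9.49 and 280 ± 19.1 CPM (SD, n = 3). Its log2 fold change was -0.028 (95% interval -0.23 to 0.17).

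Of the genes listed with the other prostanoid receptors, 6 of 8 were tested, 3 higher and 3 lower. Ptgfrn, which encodes an inhibitor and not a receptor, was among the lower. Ptgfr, the receptor of prostaglandin F, was at 24.7 ± 2.28 CPM in TBHP and 32.2 ± 5.84 CPM in TBHP+FGF21 (SD, n = 3), a log2 fold change of 0.38 (adjusted p = 0.553 by the edgeR quasi-likelihood test). Without replicate 2 of TBHP+FGF21 the log2 fold change was 0.52 (adjusted p = 0.0176 by edgeR), and without replicate 3 it was 0.25 (adjusted p = 0.973). Ptger1, which encodes EP1, was at 13.7 ± 0.559 and 16.5 ± 1.09 CPM (SD, n = 3). Its groups did not overlap, with every TBHP+FGF21 library above every TBHP library, as in 4.90% of all genes tested. Its log2 fold change was 0.28 (adjusted p = 0.553 by edgeR), and 0.34 without replicate 2 of TBHP+FGF21 (adjusted p = 0.128). Ptgfrn, with the highest mean CPM of this role, encodes an inhibitor of the prostaglandin F receptor and was at 871 ± 25.8 and 765 ± 99.7 CPM (SD, n = 3). Ptger3, which encodes EP3, had 4 counts in all libraries together, and Ptgdr, a receptor of prostaglandin D, had 0.

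Of the transport and breakdown genes, 6 of 7 were tested and none had an unadjusted p under 0.05. Abcc4, which exports prostaglandins from cells, had the highest mean CPM over all 6 libraries, at 78.5 ± 8.65 and 93.9 ± 20.1 CPM (SD, n = 3). Its log2 fold change was 0.26 with all libraries, 0.41 without replicate 2 of TBHP+FGF21 (adjusted p = 0.0340 by edgeR) and 0.11 without replicate 1 (adjusted p = 0.934). In the lipoxygenase branch, which uses arachidonic acid for leukotrienes and related lipids, 2 of 8 genes were tested. Lta4h was at 69.9 ± 3.28 and 68.2 ± 2.10 CPM, and Alox12 was at 8.87 ± 1.13 and 12.3 ± 5.54 CPM (SD, n = 3). For Alox12, replicate 3 of TBHP+FGF21 was at 18.6 CPM and the other 5 libraries were at 7.94 to 10.2 CPM. Its log2 fold change was 0.48 with all libraries, 0.71 without replicate 2 of TBHP+FGF21 (adjusted p = 0.0384 by edgeR) and 0.057 without replicate 3 (adjusted p = 0.978). Alox5 had 2 counts over all libraries, and Ltc4s and Cysltr1 had 0.

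Among inducers and regulators of Ptgs2 and Ptges, 17 of 22 genes were tested, 13 higher and 4 lower. The cytokine genes Il1a, Il1b and Il6, which are known to induce Ptgs2, had few or no counts. Tnf of the same list was not used here. Il1a had 0, Il1b had 2 and Il6 had 13 over all 6 libraries. Fos, a subunit of AP-1, was at 13.7 ± 1.35 and 22.3 ± 3.15 CPM, and Egr1, a transcription factor that acts on Ptges, was at 341 ± 17.4 and 451 ± 65.1 CPM (SD, n = 3). Fos had a log2 fold change of 0.70 and Egr1 of 0.41 (adjusted p = 0.553 for both by edgeR), and 0.69 and 0.48 without replicate 2 of TBHP+FGF21 (adjusted p 0.00845 and 0.0158). With all libraries, the DESeq2 Wald test gave Fos an adjusted p of 0.0216, and in the other 7 alternatives with all libraries it was 0.0547 to 0.569. Nfkbia, an inhibitor of NF-kB, was at 7.76 ± 0.393 and 9.93 ± 1.64 CPM, a log2 fold change of 0.36 (adjusted p = 0.553 by edgeR). For these 3 genes and Nfkb1, the lowest TBHP+FGF21 value exceeded the highest TBHP value, as in 4.90% of all genes tested. For Il1r1, the receptor of interleukin-1, the groups did not overlap in the other direction, as in 5.00%. The nearest Il1r1 values were 33.18 CPM in TBHP replicate 1 and 33.03 CPM in replicate 2 of TBHP+FGF21. The log2 fold change of Il1r1 was -0.28 and that of Nfkb1 was 0.10 (adjusted p 0.553 and 0.677 by edgeR). Nfkbiz, an NF-kB cofactor, had a log2 fold change of 0.35 with all libraries, 0.53 without replicate 2 of TBHP+FGF21 (adjusted p = 0.0366 by edgeR) and 0.18 without replicate 1 (adjusted p = 0.922). Ptgs2 itself was lower in the same libraries.

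**Figure D4:**
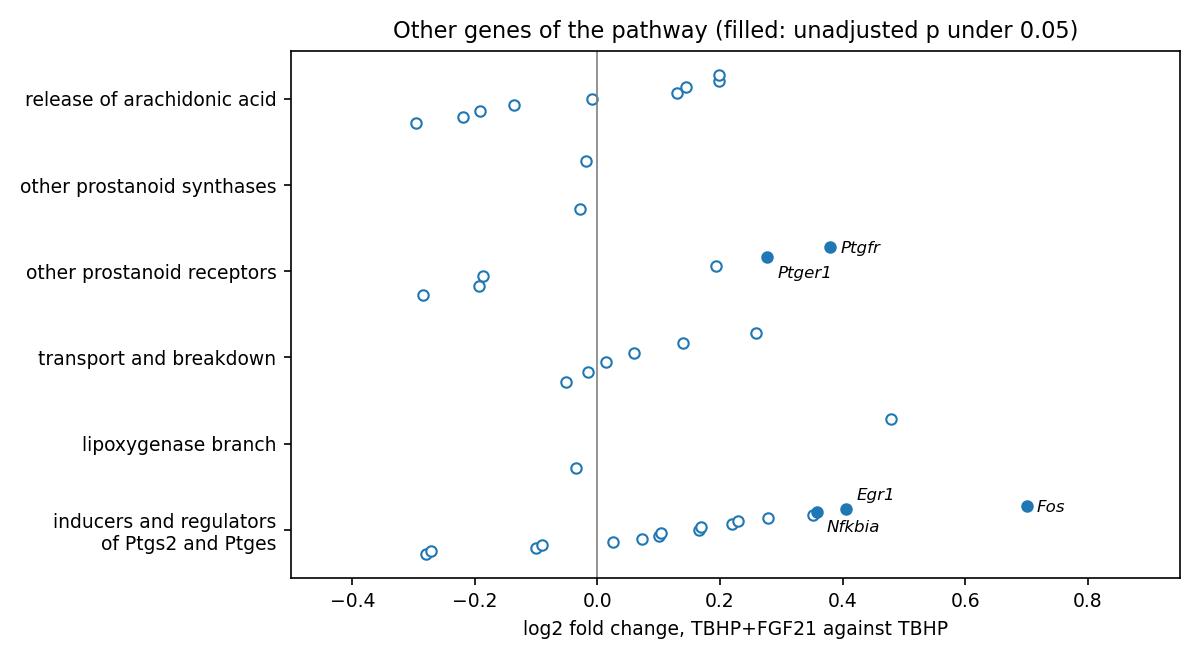
Log2 fold change, TBHP+FGF21 against TBHP, of the 42 other pathway genes tested, in rows by role; filled points have an unadjusted p under 0.05. The 5 filled points (Ptger1, Ptgfr, Nfkbia, Egr1 and Fos) all lie to the right of 0, between 0.28 and 0.70.

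The genes whose values over the 6 libraries were most like those of Ptgs2 were found by the root-mean-square difference of centred log2(CPM + 0.5). They were Gadd45a (0.0600), a stress-induced growth arrest gene, Acta2 (0.0617), which encodes smooth muscle actin, and Calhm5 (0.0640). Gadd45a was at 369, 369 and 353 CPM in TBHP and at 267, 357 and 200.4 CPM in TBHP+FGF21. As in Ptgs2, replicate 3 of TBHP+FGF21 was the lowest library, replicate 1 the next, and replicate 2 the nearest to the TBHP group. Gadd45a was chosen for its likeness to Ptgs2 over these libraries, so the shared order largely follows from the choice. Replicate 2 was inside the TBHP range for Gadd45a.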

How the data were processed

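Poly(A) RNA-seq libraries were compared as 3 TBHP against 3 TBHP+FGF21, grouped by title. The authors deposited raw counts per gene for each library and a combined table per gene symbol. The deposited combined table was treated as estimated counts, because 22 rows hold values ending in 0.5, which were rounded up. STAR and featureCounts are named in the submitters' processing notes; genome build and annotation are not given in the sources used here. The counts of 14859 of 14882 rows with a count were identical to rows of the per-sample files. The strand columns had a ratio of 0.977 to 0.986, so antisense reads cannot be told apart. No pair of libraries was a duplicate: the chi-square statistic, divided by the number of genes, was 6.98 to 58.3.

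edgeR 4.0.16 (R 4.3.3) was run on the whole combined table with TMM, filterByExpr (minimum count 10, minimum total 15), glmQLFit and glmQLFTest on condition alone, and p-values were adjusted by Benjamini-Hochberg over the 11426 genes tested. The size of each log2 fold change over the square root of its F gave the standard error. On simulated counts of 11426 genes, 185 of 200 genes simulated with a 1 log2 unit change were recovered, with 7 false calls. No smaller change was simulated and no simulated library stood apart from its group. Recovery at the sizes reported for the prostaglandin genes was therefore not tested. Alternatives used the per-sample counts, other scalings and filters, DESeq2 1.42.0, limma-voom (limma 3.58.1), the replicate block and each library left out. The design text calls the libraries biological replicates but does not say whether the cultures came from separate animals, so p-values measure the spread between these libraries.

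The members and lists were chosen with earlier results of these data known. Named were all members, the gene with the highest mean CPM and those with an unadjusted p under 0.05 of each role, the 3 genes most like Ptgs2, cell type markers at 0 or abundant and, chosen after their values were seen, genes with few counts, those called without replicate 2 of TBHP+FGF21, markers with an unadjusted p under 0.05, the other disc markers tested, Nfkb1, Il1r1, Pla2g4a and Sirt1. Col1a2 was also named after its values were seen. Positions and sequences are RefSeq's, build GRCr8, matched by symbol (96.2% of symbols). Ptges was not analysed here, and Prxl2b, Zadh2, Ltb4r and Tnf of the lists were not used here.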

Additional observations from a re-analysis of the deposited data

How the results depend on the processing

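Over the other count table, scalings, tests, filters and the replicate block, 56 of 56 log2 fold changes of the 7 prostaglandin genes kept their direction and had an adjusted p above 0.05. With each library left out, the log2 fold change lay between 0.29 and 0.69 for Ptgs1, -0.75 and -0.32 for Ptgs2, 0.33 and 0.54 for Ptger2, -0.13 and 0.013 for Ptges2, -0.35 and -0.13 for Ptges3, -0.22 and 0.051 for Ptger4, and -0.090 and 0.71 for Hpgd. Between 0 and 3 of these genes had an adjusted p under 0.05 and between 1 and 4 an unadjusted p under 0.05. In the fits with 4, many genes passed the unadjusted level. They were 1771 of 11562 without TBHP replicate 3 and 2732 of 11559 without replicate 2 of TBHP+FGF21. In the fit with 1, without replicate 3 of TBHP+FGF21, 341 of 11521 passed. Of all genes, those past an adjusted p of 0.05 numbered 0 when the per-sample counts were used (1082 at an unadjusted p under 0.05) and with limma-voom (996), 4 with DESeq2's Wald test, 5 without a filter, 2 with the replicate block, and 0 to 867 with a library left out. The other pathway genes at an unadjusted p under 0.05 numbered 11 of 52 without a filter, against 1438 of all 14882 genes. With the replicate block they numbered 11 of 42, against 1599 of 11426. With a library left out they numbered 2 to 17 of 42, against 337 to 2732 of the 11521 to 11562 genes tested. The cause of these changes was not tested.

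Whether the replicate numbers pair the libraries could not be settled. Deviations from the group means correlated across genes at -0.142, 0.270 and 0.182 for replicates 1, 2 and 3. TBHP replicate 1 correlated best with replicate 2 of TBHP+FGF21 (0.103), and TBHP replicate 3 with replicate 1 (0.211). With 3 libraries per group the deviations are tied to one another, so these values cannot decide the pairing. With the replicate block, Ptges3 joined Ptgs1, Ptgs2 and Ptger2 at an unadjusted p under 0.05, so 4 genes passed. Of all 11426 genes tested, 1599 passed with the block and 1019 without it. The adjusted p for Ptgs2 with the block was 0.103 by edgeR. Hpgd had 9 to 40 counts per library, while Ptgis had 1 count and Ptgds 0 over all libraries. The cause of these low counts was not tested.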
